A study of Mus musculus with 5 samples.

Results

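Head-to-head promoters, at which a pair of neighbouring genes is transcribed in opposite directions from a shared stretch of DNA, were examined for Pcgf6 binding in mouse ESCs. Pairs of protein-coding genes on opposite strands, pointing apart and with transcription start sites (TSSs) at most 1 kb apart, were taken from the mm9 gene annotation. Of 22359 protein-coding genes, 1614 formed 807 such pairs with each gene used once, which made 807 of the 21544 promoter regions tested. Another 16325 regions were single promoters, with no TSS of another annotated gene, coding or non-coding, within 4 kb. The remaining 4412 were neither. A region reached 2 kb to each side of the midpoint between the paired TSSs, or of the TSS of a single promoter. The median distance between paired TSSs was 155 bp (quartiles 80.5 and 302 bp, range 1 to 996 bp), and 791 of the 807 pairs lay on autosomes.

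The data were ChIP-seq coverage of 5 libraries from CCE, an established line of mouse embryonic stem cells used at low passage. Proteins were fixed to DNA by disuccinimidyl glutarate followed by paraformaldehyde, and the chromatin was precipitated with a Pcgf6 antibody from Santa Cruz (SC, 2 libraries) or from Abcam (2 libraries), and chromatin without antibody gave 1 input library. All 5 libraries came from unmodified cells of this line, so no library lacked Pcgf6, and the cell identity rests on the labels because coverage holds no expression values. In such bulk libraries, fewer cells with a bound promoter and less binding per cell cannot be told apart.

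Bidirectional promoters are usually rich in CpG dinucleotides, lack a TATA box and often serve genes that every cell uses, among them genes of DNA repair, the mitochondrial ribosome, histones and RNA processing. Pcgf6 is the subunit that defines a variant of Polycomb repressive complex 1. This complex contains L3mbtl2, the E-box binding pair Mga and Max, and E2f6, and in ESCs it is known for its part in keeping germ-cell genes silent.

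The stretches between the paired TSSs are given for the pairs that passed the test with both antibodies and whose stretch overlaps no annotated exon, and for 4632404H12Rik/Ube2q1, which held most E-boxes among the pairs that passed with any antibody. They show how little sequence separates the divergent genes and where the E-box (CACGTG, bound by Mga and Max) and the E2F motif (GCGGGAA), both in capitals, are located. Each is the plus strand of NCBIM37 (mm9), 5′ to 3′, from the base after the TSS of the minus-strand gene to the base before the TSS of the plus-strand gene, except that the last shows the central 300 of 368 bases.
Ppp1r3d/9030418K01Rik, chr2:178149178-178149228: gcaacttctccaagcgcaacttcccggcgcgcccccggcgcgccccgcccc
1810031K17Rik/Fam134a, chr1:75139272-75139359: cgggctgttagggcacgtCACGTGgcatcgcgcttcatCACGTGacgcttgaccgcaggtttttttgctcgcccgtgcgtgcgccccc
Lypd4/Dmrtc2, chr7:25654961-25655075: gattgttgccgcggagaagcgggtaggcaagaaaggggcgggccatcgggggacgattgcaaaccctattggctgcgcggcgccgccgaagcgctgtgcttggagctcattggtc
Smc1b/Ribc2, chr15:84962388-84962528: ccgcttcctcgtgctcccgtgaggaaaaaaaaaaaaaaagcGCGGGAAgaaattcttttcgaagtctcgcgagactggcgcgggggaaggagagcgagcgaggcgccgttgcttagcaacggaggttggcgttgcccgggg
Gpc2/Stag3, chr5:138721234-138721467: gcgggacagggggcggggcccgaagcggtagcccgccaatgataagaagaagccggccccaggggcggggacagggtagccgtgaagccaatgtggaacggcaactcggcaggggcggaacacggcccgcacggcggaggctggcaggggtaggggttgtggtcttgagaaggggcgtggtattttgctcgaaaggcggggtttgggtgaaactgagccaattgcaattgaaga
4632404H12Rik/Ube2q1, chr3:89577197-89577496: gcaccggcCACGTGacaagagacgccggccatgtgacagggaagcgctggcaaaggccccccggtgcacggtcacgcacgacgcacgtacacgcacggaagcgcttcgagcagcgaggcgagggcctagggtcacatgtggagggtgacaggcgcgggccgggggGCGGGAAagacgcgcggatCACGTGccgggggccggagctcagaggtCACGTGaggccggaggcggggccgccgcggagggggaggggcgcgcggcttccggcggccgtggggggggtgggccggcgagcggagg
The stretch of Ppp1r3d/9030418K01Rik is 51 bases long with 78.4% G and C and holds neither motif. By contrast, the stretch of 1810031K17Rik/Fam134a carries 2 E-boxes, that of Smc1b/Ribc2 carries 1 E2F motif, and the part shown of 4632404H12Rik/Ube2q1 carries 3 E-boxes and 1 E2F motif. Neither motif lies between the TSSs of Lypd4/Dmrtc2 or of Gpc2/Stag3.

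The ChIP libraries held between 2290181 and 2850556 fragments of 300 bp and the input library held 22823751. The libraries of each antibody were mostly the same fragments, with 88.2% of the first SC library and 88.4% of the first Abcam library found again in the other. Over the pairs they differed by less than the sampling noise (chi-square per degree of freedom 0.118 for SC and 0.136 for Abcam, against 0.976 between antibodies), so each antibody was counted as 1 sample, joined to 2562856 (SC) and 3158500 (Abcam) fragments. Each test therefore compares fragments of a ChIP sample with fragments of the input, and each interval covers counting error only.

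The pairs as a class were no richer in Pcgf6 ChIP signal than in input. Depth summed over a region was divided by the depth sum of its library and multiplied by 1000000. The median scaled depth of a pair was 3.77 in the input, 3.06 and 3.04 in the SC libraries and 3.32 and 3.37 in the Abcam libraries, so all 4 ChIP medians lay under the input. In joined fragments a pair had a median of 83 in the input (quartiles 67 and 98), 8 with SC and 10 with Abcam. Summed over all pairs and scaled by library totals, the ratio of ChIP to input was 0.883 with SC (95% interval 0.861 to 0.906) and 0.960 with Abcam (0.939 to 0.981). Both intervals lay below 1. The ratio exceeded 1 at 269 pairs (33.3%) with SC and 313 pairs (38.8%) with Abcam, and it exceeded 1 with both antibodies at 153 pairs against 371 that were below 1 with both.

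Single promoters had fewer input fragments (median 64) and fewer of them were rich in CpG. The ratio of observed to expected CpG exceeded 0.6 at 87.0% of the pairs and 39.4% of the single promoters, with medians of 0.780 and 0.448. Their summed ratio of ChIP to input was 0.941 (0.935 to 0.947) with SC and 0.988 (0.982 to 0.993) with Abcam, higher than that of the pairs with each antibody. Single promoters of like input depth were then set beside the pairs in 20 groups of input fragments. The pairs' ratio relative to them was 0.990 with SC (Mantel-Haenszel 95% interval 0.964 to 1.016) and 1.016 with Abcam (0.993 to 1.040), and both intervals included 1. Of the 14 input groups with at least 20 pairs, the pairs had the higher ratio in 5 with SC and in 9 with Abcam. In both classes the ratio fell with the input count, which enters the grouping and the denominator alike.

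**Figure D1:**
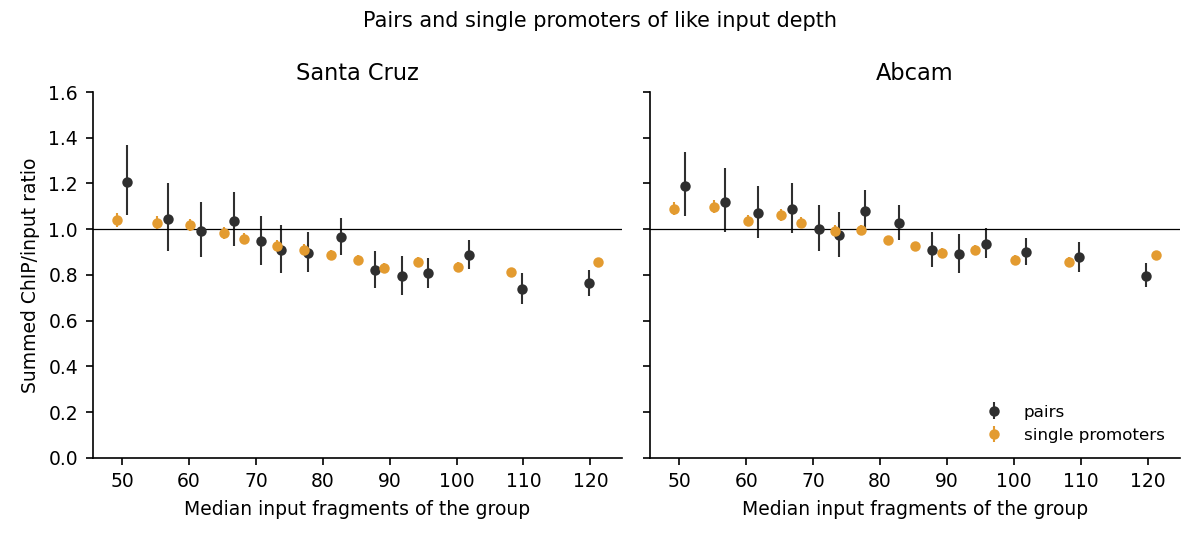
Ratio of ChIP to input fragments (y axis, scaled by library totals) in the groups of input fragments that hold at least 20 pairs (x axis), for head-to-head pairs and single promoters with each antibody; bars are 95% intervals from counting error. The ratios of pairs ranged from 0.739 to 1.21 with SC and from 0.796 to 1.19 with Abcam and crossed those of single promoters, 0.812 to 1.04 and 0.858 to 1.1.

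The CpG content moved with this comparison. Among pairs and single promoters with an observed to expected CpG ratio over 0.6, again in groups of like input, the pairs were lower with both antibodies, at 0.934 (0.908 to 0.961) with SC and 0.946 (0.922 to 0.970) with Abcam. The direction without CpG matching also turned with the window, since with ±500 bp the relative ratio with Abcam was 0.980 and with ±10 kb that with SC was 1.01. What part CpG content has in the difference was not tested.

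At single pairs, Pcgf6 signal far enough above input to be called was rare. Weaker enrichment would mostly go uncalled, as given below for simulated data. A one-sided exact binomial test, adjusted over all regions after Benjamini and Hochberg, called 10 pairs with SC (1.24% of the 807, against 0.585% of all regions tested), 10 with Abcam (1.24%, against 1.06%) and 7 with both (0.867%, against 0.441%). Among single promoters the shares were 0.429%, 0.919% and 0.276%, and weighted to the input groups of the pairs they were 0.415%, 1.0% and 0.302%. The order changed with the promoters set beside the pairs. Among regions with an observed to expected CpG ratio over 0.6, the shares were 1.28%, 1.28% and 0.855% of the pairs and 0.840%, 1.99% and 0.638% of the single promoters, so that the pairs were lower with Abcam. Promoters that were neither pairs nor single were called at 1.04%, 1.56% and 0.975%, above the pairs with Abcam and with both antibodies. No difference in shares was tested, because regions of 1 library are not replicates. Without adjustment, 39 pairs with SC (4.83%, against 4.96% of all regions) and 47 with Abcam (5.82%, against 6.13%) had p under 0.05. The counts depended on how fragments were taken. Counting every fragment of both libraries of an antibody gave 17 pairs with SC, 30 with Abcam and 12 with both. That count enters the fragments shared by the libraries more than once, so its test is too lenient and these numbers are no evidence of more bound pairs. Leaving out SC replicate 2 gave 5 with SC.

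**Figure D2:**
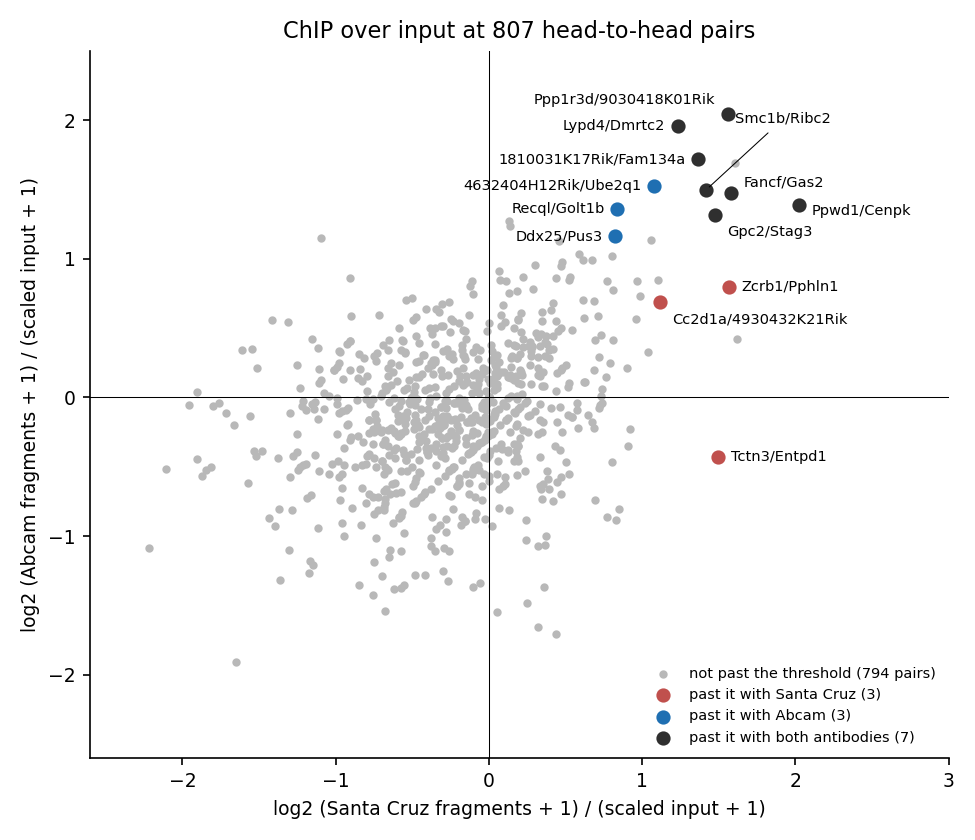
Log2 ratio of ChIP to input of the 807 pairs with SC (x axis) against Abcam (y axis), with 1 fragment added to each count; 794 pairs passed with neither antibody, 3 with SC alone, 3 with Abcam alone and 7 with both. The points spread around 0 on both axes, with more to the lower left than to the upper right, and the 7 pairs called with both antibodies lie at the upper right.

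The called pair with the highest ratio over both antibodies summed was Ppp1r3d/9030418K01Rik on chromosome 2. Ppp1r3d encodes a subunit that targets protein phosphatase 1 to glycogen, and 9030418K01Rik is listed in RefSeq as Fam217b. Scaled depth at this pair was 3.37 in the input, 10.05 and 11.3 in the SC libraries, and 15.5 and 15.1 in the Abcam libraries. All 4 ChIP values stood above the input. In fragments, 28 with SC and 48 with Abcam faced 77 of the input, which gave ratios of 3.17 (1.98 to 4.94, adjusted p = 0.000644) and 4.40 (3.01 to 6.4, adjusted p = 1.26e-10).

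Ppwd1/Cenpk on chromosome 13 had TSSs at 105018924 and 105019468, which are 544 bp apart. Ppwd1 is a peptidylprolyl isomerase of the spliceosome and Cenpk a component of the kinetochore. The scaled depth was 2.20 in the input, 9.61 and 10.4 with SC, and 5.07 and 6.32 with Abcam, so the SC libraries were the higher ones here. The ratios were 4.63 with SC (2.73 to 7.68, adjusted p = 1.54e-05) and 2.86 with Abcam (1.58 to 4.96, adjusted p = 0.0327). Without Abcam replicate 2 the Abcam call was lost (adjusted p = 0.295), and it was also lost when the outermost TSSs defined the pair (adjusted p = 0.0507).

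Lypd4/Dmrtc2, on chromosome 7, joins a gene of sperm function to a DM-domain factor of male meiosis. Its scaled depth was 3.81 in the input, 9.17 and 10.5 with SC, and 15.6 and 15.4 with Abcam. The ratio was 2.49 with SC (1.51 to 3.96, adjusted p = 0.0405) and 4.12 with Abcam (2.84 to 5.93, adjusted p = 4e-10), and the SC call was lost without SC replicate 2 (adjusted p = 0.101).

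Smc1b/Ribc2 joins a subunit of meiotic cohesin to a protein of ciliary microtubules. The scaled depth was 2.94 in the input, 9.17 and 8.26 with SC and 9.05 and 9.12 with Abcam, nearly level across the ChIP libraries. The ratios were 2.9 with SC (1.68 to 4.82, adjusted p = 0.0197) and 3.03 with Abcam (1.85 to 4.82, adjusted p = 0.00139). Without SC replicate 1 the SC value no longer passed (adjusted p = 0.135).

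Gpc2/Stag3 joins a glypican of the cell surface to another subunit of meiotic cohesin. Here the scaled depth was 4.65 in the input, 13.9 and 13.8 with SC, and 12.3 and 12.6 with Abcam. No pair had a higher scaled depth with SC. The ratios were 2.93 with SC (1.93 to 4.36, adjusted p = 0.000273) and 2.59 with Abcam (1.73 to 3.81, adjusted p = 0.000711).

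The other two pairs called with both antibodies were 1810031K17Rik/Fam134a and Fancf/Gas2. RefSeq lists 1810031K17Rik as Cnppd1 and Fam134a, of a family of endoplasmic reticulum receptors for autophagy, as Retreg2. Its scaled depth was 4.29 in the input, 9.95 and 12.1 with SC and 16.5 and 13.9 with Abcam, the first Abcam value being the highest of any pair in that library. The ratios were 2.72 with SC (1.74 to 4.14, adjusted p = 0.00296) and 3.46 with Abcam (2.39 to 4.95, adjusted p = 7.24e-08). Without SC replicate 2 the SC value missed the threshold (adjusted p = 0.0977).

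Fancf is a subunit of the Fanconi anaemia core complex of DNA repair and Gas2 a protein of the cytoskeleton, with TSSs at 59117637 and 59117797 of chromosome 7. The scaled depth was 2.94 in the input, 10.6 and 9.13 with SC, and 8.16 and 8.24 with Abcam. All 4 ChIP libraries were high at this pair. The ratios were 3.27 with SC (1.95 to 5.29, adjusted p = 0.002) and 2.98 with Abcam (1.83 to 4.74, adjusted p = 0.00169). Within ±500 bp of the midpoint, neither antibody gave a call.

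**Figure D3:**
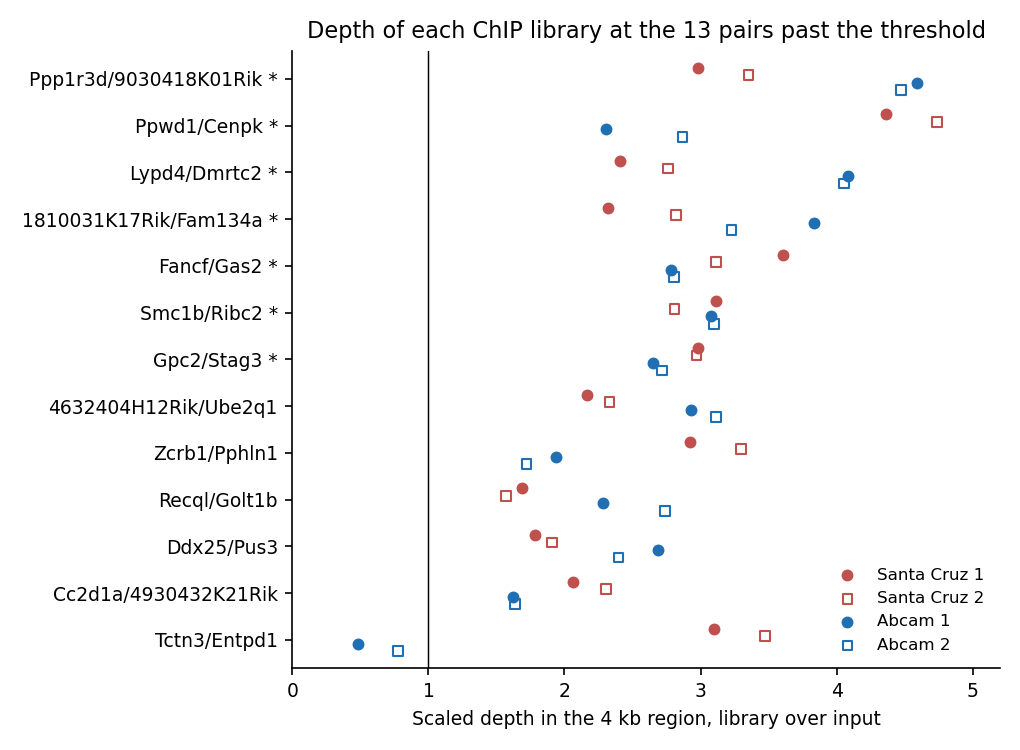
Scaled depth divided by that of the input (x axis) of the 4 ChIP libraries at the 13 pairs called with any antibody (y axis); SC is red and Abcam blue, filled circles are replicate 1 and open squares replicate 2, and an asterisk marks pairs called with both antibodies. Replicates of an antibody share most fragments and lie close together at each pair, and Tctn3/Entpd1 is the pair with its Abcam values below 1.

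Abcam alone called 3 pairs. 4632404H12Rik/Ube2q1, where Ube2q1 is a ubiquitin-conjugating enzyme, had a scaled depth of 5.04 in the input, 10.9 and 11.7 with SC and 14.8 and 15.7 with Abcam. All 4 ChIP values exceeded the input, and the ratio was 2.99 with Abcam (2.08 to 4.24, adjusted p = 2.39e-06) and 2.20 with SC (1.4 to 3.35, adjusted p = 0.0667). Within ±1 kb the SC value passed too (adjusted p = 0.000796).

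Recql/Golt1b joins a RecQ DNA helicase to a protein of Golgi transport. Its scaled depth was 4.0 in the input, 6.73 and 6.27 with SC and 9.13 and 11.0 with Abcam, with ratios of 1.87 (adjusted p = 0.657) and 2.69 (adjusted p = 0.00151). Ddx25/Pus3 joins an RNA helicase of the testis to a tRNA pseudouridine synthase, with TSSs 990 bp apart. Its scaled depth was 3.32 in the input, 5.93 and 6.34 with SC and 8.91 and 7.95 with Abcam, and the ratios were 1.86 (adjusted p = 0.764) and 2.36 (adjusted p = 0.0422). With scaling by the median ratio over the genome the Abcam call of Ddx25/Pus3 was lost (adjusted p = 0.0514).

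SC alone called 3 others. Zcrb1/Pphln1, a component of the minor spliceosome beside a subunit of the silencing complex HUSH, had a scaled depth of 2.24 in the input, 6.55 and 7.39 with SC and 4.35 and 3.86 with Abcam. Its ratio was 3.31 with SC (1.84 to 5.71, adjusted p = 0.0114) and 1.84 with Abcam (0.915 to 3.43, adjusted p = 0.765). The SC value missed the threshold without SC replicate 1 (adjusted p = 0.056) and without SC replicate 2 (adjusted p = 0.117).

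Cc2d1a/4930432K21Rik, of which the second is listed in RefSeq as Brme1, a factor of meiotic recombination, had a scaled depth of 5.26 in the input, 10.9 and 12.1 with SC and 8.52 and 8.59 with Abcam. The ratio was 2.25 with SC (adjusted p = 0.0333) and 1.65 with Abcam (adjusted p = 0.497), and the SC call was lost without SC replicate 2 (adjusted p = 0.256). Tctn3/Entpd1, a protein of the ciliary transition zone beside the ectonucleotidase CD39, was the only called pair at which the antibodies lay on opposite sides of the input. It had a scaled depth of 2.25 in the input, 6.99 and 7.83 with SC and 1.09 and 1.75 with Abcam. The ratio was 3.14 with SC (1.72 to 5.47, adjusted p = 0.0263) and 0.707 with Abcam (0.220 to 1.76, adjusted p = 1), although within ±1 kb the Abcam ratio was 1.07. The SC value also missed the threshold without SC replicate 2 (adjusted p = 0.056).

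The antibodies were then compared directly. A two-sided exact binomial test of SC against Abcam fragments with Benjamini-Hochberg adjustment called 0 pairs (0.00928% of all regions), and 19 pairs (2.35%, against 2.38% of all regions) had p under 0.05 without adjustment. Tctn3/Entpd1 had the smallest p of any pair (0.00228, adjusted p = 1 by the exact test), from 18 SC and 5 Abcam fragments. Across the pairs the log2 ratios of the antibodies, which share the input, had a Pearson correlation of 0.357 (Spearman 0.293), and of 0.279 over the pairs called with neither, against 0.307 across single promoters.

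Within the called regions the fragments often lay to the side of 1 gene. At Gpc2/Stag3, 28 of 34 SC and 30 of 37 Abcam fragments lay on the Stag3 side of the midpoint, against 53 of 101 of the input. At Smc1b/Ribc2, 14 of 21 SC and 25 of 27 Abcam fragments lay on the Smc1b side, against 33 of 63 in the input. At Cc2d1a/4930432K21Rik, 24 of 30 SC and 22 of 27 Abcam fragments lay towards 4930432K21Rik, against 54 of 116 in the input.

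The lean also differed in strength between antibodies at some pairs. With Abcam, 43 of 48 fragments lay on the Ppp1r3d side of Ppp1r3d/9030418K01Rik, and with SC 18 of 28, against 42 of 77 of the input. At Fancf/Gas2 the Abcam fragments had their median at -801 bp, that is towards Fancf, and 22 of 27 lay on that side, as did 17 of 24 SC and 33 of 64 input fragments. Ddx25/Pus3 leaned to Ddx25 with 12 of 16 SC and 16 of 25 Abcam fragments, but so did 51 of 75 of the input. Lypd4/Dmrtc2 had 15 of 24 SC and 27 of 49 Abcam fragments on the Lypd4 side, against 49 of 84 of the input. It was centred instead, with 37 of 49 Abcam and 16 of 24 SC fragments within 500 bp of the midpoint, against 30 of 84 in the input.

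**Figure D4:**
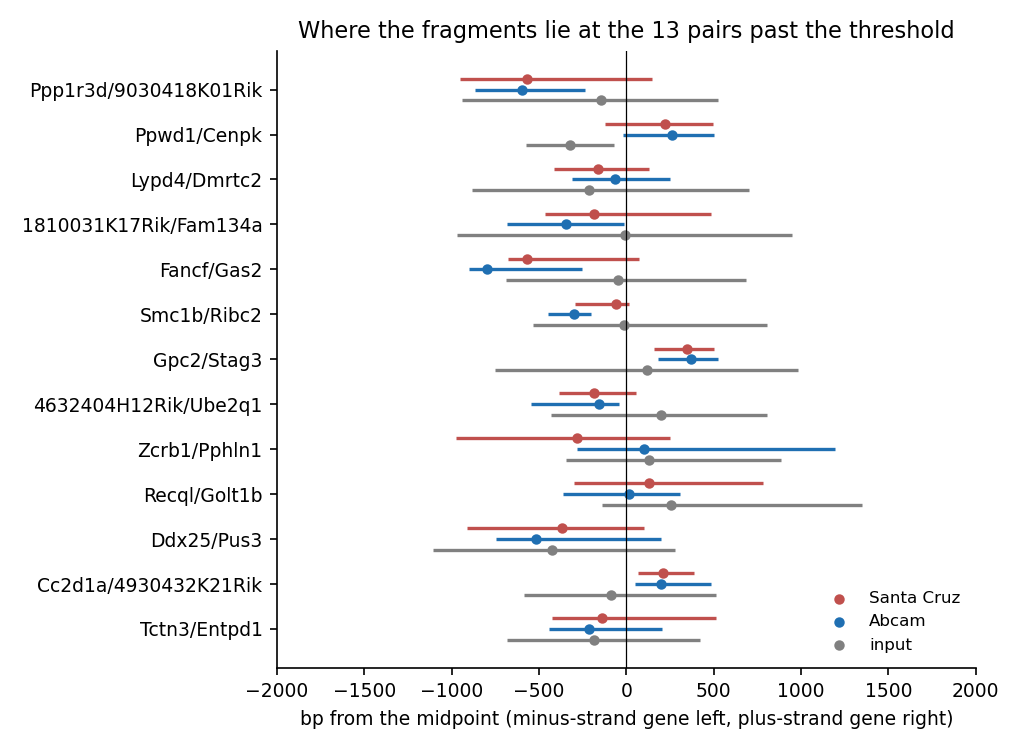
Position of the fragment middles relative to the midpoint between the TSSs (x axis, bp, negative towards the minus-strand gene) at the 13 pairs called with any antibody (y axis); points are medians and bars run from the first to the last quartile for SC, Abcam and input. Gpc2/Stag3 lies at 349.5 bp with SC and 369 bp with Abcam, and Fancf/Gas2 at -572 and -801 bp.

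Across all pairs the input itself peaked over the midpoint. Depth within 500 bp of the midpoint was 2.22 times that at 1.5 to 2 kb in the input, 1.84 and 1.89 times in the SC libraries and 1.99 and 1.96 times in the Abcam libraries. In joined fragments the concentration relative to input was 0.856 with SC (0.796 to 0.921) and 0.889 with Abcam (0.835 to 0.947), below 1 with both. For single promoters it was 0.960 (0.943 to 0.977) and 1.06 (1.04 to 1.07). At the 7 pairs called with both antibodies it was 4.02 with SC and 3.02 with Abcam, which is a description only, because an excess of the same fragments chose these pairs.

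With SC, the signal relative to input was lower at the very centre than at 200 to 400 bp, in pairs and in single promoters. These windows were chosen after the profile was seen. Within 100 bp of the midpoint the pairs held 0.928 SC fragments per kb and 1000000 library fragments against 1.21 at 200 to 400 bp, while the input had 1.47 and 1.4. The ratio to input was 0.630 in the centre (0.566 to 0.698) and 0.864 at 200 to 400 bp (0.809 to 0.922). With Abcam the intervals of the centre (0.842, 0.774 to 0.915) and of the shoulder (0.931, 0.879 to 0.986) overlapped. Single promoters showed it too, with a centre ratio of 0.785 (0.766 to 0.805) and a shoulder ratio of 0.965 (0.948 to 0.982) with SC, and 0.924 (0.905 to 0.944) and 1.05 (1.04 to 1.07) with Abcam. The dip is therefore not particular to the pairs, whose ratios were lower in both windows. Among regions with an observed to expected CpG ratio over 0.6 the centre ratio with SC was 0.615 (0.549 to 0.687) at 702 pairs and 0.774 (0.748 to 0.800) at 6429 single promoters, and these intervals did not overlap. With Abcam they were 0.835 (0.763 to 0.911) and 0.965 (0.938 to 0.992), which did not overlap either. At 200 to 400 bp these pairs were lower too, at 0.863 against 1.005 with SC and 0.919 against 1.12 with Abcam. The lower ratio of the pairs was thus not confined to the centre.

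**Figure D5:**
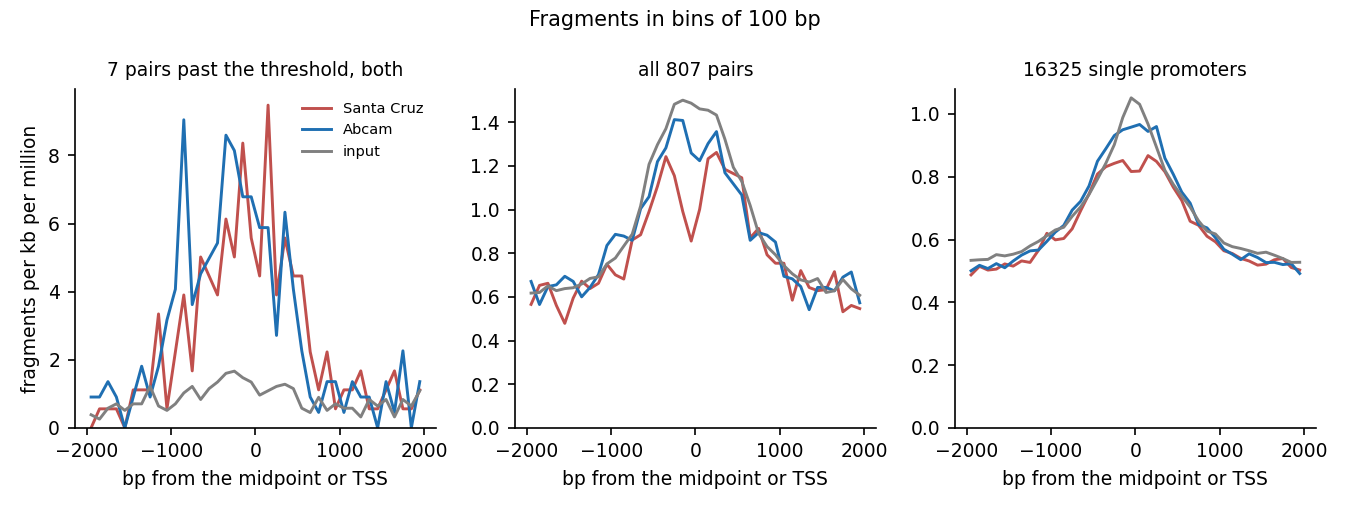
Fragments per kb and 1000000 fragments (y axis) in 100-bp bins of distance from the midpoint or TSS (x axis) for SC, Abcam and input, over the 7 pairs called with both antibodies, all 807 pairs and 16325 single promoters. The ChIP lines rise above the input in the first panel and run below it at the centre in the second, where SC dips to 0.928 within 100 bp of the midpoint against 1.47 in the input.

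Motifs were searched on both strands within 301 bp centred on the midpoint or TSS, and regions of the same length at all promoters gave the comparison. The E-box CACGTG was in 10.2% of the pairs and 7.04% of all regions, the E2F motif GCGGGAA in 11.0% and 5.99%, the ETS motif CCGGAAG in 27.3% and 10.8%, the CCAAT box in 42.8% and 35.3%, and the GC box GGGCGG in 66.3% and 45.2%. The GC box overlaps the motif CGNGGGCG, which was in 18.0% and 15.3%. The TATA box TATAAA was rarer in the pairs (5.08%) than in all regions (11.1%). Among single promoters with an observed to expected CpG ratio over 0.6, the E-box (9.91%) and the E2F motif (10.5%) were about as common as in the pairs, and ETS (17.2%), the CCAAT box (31.9%) and the TATA box (3.76%) were less common. The GC box (77.3%) and CGNGGGCG (32.1%) were more common there than in the pairs, so most of these differences from all regions depended on the promoters used for comparison.

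Of the 13 pairs called with any antibody, 5 held the E2F motif, 2 the E-box, 7 the CCAAT box, 9 the GC box and 0 the TATA box. Over the 89 pairs with an E2F motif the summed ratio of ChIP to input was 0.987 with SC (0.917 to 1.06), against 0.871 (0.847 to 0.894) over those without one, and these intervals did not overlap. With Abcam it was 1.1 against 0.942. The median pair differed less, at 0.924 with the motif and 0.829 without it for SC, and at 0.909 and 0.908 for Abcam. Among CpG-rich single promoters (observed to expected ratio over 0.6), the intervals with and without an E2F motif overlapped with both antibodies. The ratios were 0.977 and 0.953 there with SC, and 1.04 and 1.03 with Abcam. For the 82 pairs with an E-box the summed ratio with SC was 0.926 (0.855 to 1.002) and for those without 0.879 (0.856 to 0.902). With Abcam it was 1.04 (0.966 to 1.11) and 0.951 (0.929 to 0.974), and the intervals overlapped with both antibodies. At single promoters with an observed to expected CpG ratio over 0.6 they did not overlap. There the ratios with and without an E-box were 1.06 and 0.944 with SC, and 1.14 and 1.02 with Abcam. A motif match says only that these letters are in the window.

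Gene lists were described by their counts, most of them for processes known to use divergent promoters. The list of germ cells and meiosis is not of that kind, since germ-cell genes are known as genes that the Pcgf6 complex helps to silence. Of 5 pairs with a gene of germ cells or meiosis, 2 were called with SC, 3 with Abcam and 2 with both, where 0.585%, 1.06% and 0.441% of all regions tested were called, and the summed ratio was 2.09 with SC (1.64 to 2.64) and 2.22 with Abcam (1.79 to 2.74), beside 0.883 and 0.960 over all pairs. The called members were Smc1b/Ribc2, Gpc2/Stag3 and, with Abcam, Ddx25/Pus3. Rad51c/Tex14, a recombinase paralogue beside a gene of germ-cell bridges, had ratios of 1.59 (0.809 to 2.9) and 1.69 (0.934 to 2.9) and did not pass. The pairs of Dmrtc2 and 4930432K21Rik, named above for their meiotic roles, are outside the list. Its median ratios were 1.86 with SC and 2.36 with Abcam, against 0.898 and 0.942 over all regions tested.

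DNA repair and replication had 37 pairs, of which 1 was called with SC (2.70%, against 0.585% of all regions), 2 with Abcam (5.41%, against 1.06%) and 1 with both. These were Fancf/Gas2 and, with Abcam, Recql/Golt1b, and the summed ratio of the list was 0.944 with SC (0.838 to 1.06) and 1.05 with Abcam (0.949 to 1.16). Aimp2/Pms2, with the mismatch repair gene Pms2, followed at 2.06 (adjusted p = 0.456) and 1.86 (adjusted p = 0.448) without passing the exact test.

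Of 14 pairs of replication-dependent histone genes, 0 were called, where 0.585% of all regions were called with SC and 1.06% with Abcam. At these shares a list of this size would hold few calls or none. The summed ratio was 1.29 with SC (0.994 to 1.64) and 1.37 with Abcam (1.09 to 1.70). Their windows held few input fragments (median 36.5). Single promoters with 30 to 38 input fragments also stood above 1, at 1.13 with SC and 1.15 with Abcam. Hist1h2ba/Hist1h2aa, a pair of testis-enriched histone variants, had 14 SC, 18 Abcam and 54 input fragments and ratios of 2.26 (adjusted p = 0.510) and 2.36 (adjusted p = 0.168), and Hist1h2bh/Hist1h3f had 7, 3 and 14 fragments. Histone genes are near-identical copies, and reads that fit several copies may have been dropped or split by the mapping.

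Apart from the lists of DNA repair and of histones given above, the lists of housekeeping genes had summed ratios under 1 with both antibodies. So did the whole class (0.883 with SC and 0.960 with Abcam). Not all Abcam intervals of these lists lay below 1. Their counts of calls say little, since only 0.585% of all regions were called with SC and 1.06% with Abcam. Mitochondrial ribosome and respiratory chain genes had 43 pairs, with 0 called and summed ratios of 0.866 with SC (0.771 to 0.969) and 0.873 with Abcam (0.786 to 0.967). RNA splicing and processing genes had 42 pairs with ratios of 0.761 (0.676 to 0.854) and 0.867 (0.783 to 0.957), and its 1 call, with Abcam, was Ddx25/Pus3. Both intervals of each of these lists lay below 1. The 11 pairs of cytosolic ribosomal proteins stood at 0.737 (0.571 to 0.938) and 0.863 (0.697 to 1.06) with 0 called, and the 26 pairs of proteasome, ubiquitin and chaperone genes at 0.845 (0.731 to 0.971) and 0.973 (0.861 to 1.1), with 4632404H12Rik/Ube2q1 called with Abcam. By name, Ndufaf2/Ercc8, an assembly factor of respiratory complex I beside a gene of transcription-coupled repair, had the highest ratio of the mitochondrial list over both antibodies summed, 1.27 (0.521 to 2.67) with SC and 2.06 (1.1 to 3.64, adjusted p = 0.425) with Abcam.

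The exact test called 0 of the 6 pairs that serve as textbook cases of a bidirectional promoter, among them Atm/Npat, Mcm4/Prkdc and Brca1/Nbr1. With 0.585% (SC) and 1.06% (Abcam) of all regions called, this count says little about so few pairs. Their summed ratio was 0.536 with SC (0.363 to 0.766) and 1.07 with Abcam (0.836 to 1.36). Atm/Npat, a kinase of the DNA damage response beside a regulator of histone transcription, had 7 SC, 19 Abcam and 84 input fragments.

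Of the genes that the study names around Pcgf6, Nup88 is in a pair. The paper counts Nup88 among the genes that Pcgf6 directly regulates. Its methods took peaks called by the program MACS within ±10 kb of a TSS as promoter peaks. That is a wider window than the ±2 kb used here, and another test. The paper also drew on RT-qPCR after siRNA knockdown, which coverage does not hold. Nup88/Rpain, a nucleoporin beside a protein that interacts with RPA, had 4 SC, 10 Abcam and 95 input fragments and ratios of 0.367 (0.0979 to 0.970) and 0.744 (0.346 to 1.43). Hnrnpa2b1/Cbx3, with the heterochromatin protein HP1 gamma of the Pcgf6 complex, had 14, 13 and 141 fragments and ratios of 0.865 (0.461 to 1.5) and 0.651 (0.338 to 1.15). Rbbp4/Zbtb8os, with a histone chaperone of several chromatin complexes, had 2, 11 and 80 fragments and ratios of 0.218 and 0.971. At none of these 3 pairs did a ratio exceed 1.

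At the low end, among pairs with at least 100 input fragments, 1110038D17Rik/Snrpd3 had the lowest ratio over both antibodies summed, with 2 SC, 7 Abcam and 113 input fragments (0.154 and 0.438). Snrpd3 is a core protein of spliceosomal particles. Gpr137/Bad, with the pro-apoptotic gene Bad, had 6, 7 and 129 fragments, and Tmem93/Tax1bp3 had 5, 6 and 107. Wars/Wdr25, with the tryptophanyl-tRNA synthetase gene, had 6, 5 and 101 fragments, and Chtf18/Rpusd1, with a loader of the replication clamp, had 4, 8 and 109. The test was one-sided for enrichment, so these low values carry no call.

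The distance between the TSSs was not followed by a steady change in signal. The 270 pairs at 1 to 100 bp had summed ratios of 0.852 with SC and 0.938 with Abcam, the 333 at 101 to 300 bp 0.923 and 0.993, the 106 at 301 to 500 bp 0.843 and 0.956, and the 98 beyond 500 bp 0.886 and 0.918. Calls with both antibodies numbered 2, 4, 0 and 1 in these classes (0.741%, 1.20%, 0% and 1.02%, against 0.441% of all regions tested). Counts this small say little about distance. Just inside the limit of 1 kb were Ddx25/Pus3 at 990 bp, Abca17/Abca3 at 994 bp (16 SC, 16 Abcam and 83 input fragments) and BC053749/Hspb6 at 996 bp (10, 13 and 97). Just outside it were Serpina7/4930513O06Rik at 1007 bp (3, 2 and 14), Atg14/Gm6616 at 1008 bp (8, 15 and 57) and 9130011J15Rik/Tmem38a at 1015 bp (7, 16 and 102).

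Depth limited what could be called. In simulated data, the exact test against input called 0 of 200 pairs raised 1.5-fold with either antibody. At 2-fold it called 17% with SC and 16% with Abcam, and at 3-fold 85% and 88%. The calls therefore do not show how common weaker enrichment is. Of the 807 pairs, 7 had no input fragment and 6 had 1 to 19, while 8 had no SC and 10 no Abcam fragment. Those without input fragments included the histone pairs Hist1h2bq/Hist1h2ao and Hist1h2ap/Hist1h2br, and nothing can be said of binding at them. The uncalled pair with the highest ratio over both antibodies summed was 2610002M06Rik/Fam46d on chromosome X, named after its values were seen, with 8 SC, 10 Abcam and only 17 input fragments and ratios of 4.10 (1.53 to 10.02, adjusted p = 0.256) and 4.16 (1.70 to 9.61, adjusted p = 0.0796 by the exact test). Windows of 24 pairs overlapped that of another region tested and share fragments with it.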

How the data were processed

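The authors deposited, for each library, a coverage signal, which counts at each position the reads, lengthened to 300 bp, that cover it. It is not normalised to depth or input. The submitters' processing notes name Bowtie (0.1.2.7) and mm9, and mapping filters are not given in the sources used here. Each step up in depth was matched to a step down 300 bp on, which gave the fragments. The libraries of an antibody, which differ by a shift of 1 or 15 positions at fragment ends, were joined, and each position counted once. TSSs came from the GENCODE annotation of NCBIM37. Fragments within ±2 kb were compared with the input by a one-sided exact binomial test and between antibodies by a two-sided exact binomial test, Benjamini-Hochberg adjusted over 21544 regions at 0.05, with Clopper-Pearson 95% intervals. No limma, count model or SD over replicates was used, since replicates shared fragments. Fragment recovery, the binomial tests and the ratio in groups of like input were tried on simulated data, and the other steps were not.

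Pairs named were all those called, the 5 lowest with at least 100 input fragments, pairs with a gene that the study names or of the complex, up to 3 per gene list, and 3 on each side of the distance limit. The members, lists and tests were chosen with earlier results of these data known. Values of 2 pairs are not reported here. Alternatives were all fragments as deposited, other windows, scaling by the median ratio, other distance limits, the outermost TSSs, crossing pairs, CpG groups, regions with at least 20 input fragments, another pseudocount and each replicate left out. Tests ran in scipy 1.17.1 under Python 3.11.15, tables in pandas 2.3.3 and numpy 2.4.6, fragment recovery in numba 0.67.0 and figures in matplotlib 3.10.9.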

Additional observations from a re-analysis of the deposited data

How the results depend on the processing

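The counts of called pairs moved with how fragments were taken. Counting all fragments as deposited gave 17 pairs with SC, 30 with Abcam, 12 with both and 6 for the difference between antibodies. The ratio relative to like-input single promoters was then 0.980 with SC (0.960 to 0.999). Shared ChIP fragments enter this count more than once, so these calls and this interval overstate the precision. A window of ±10 kb gave 2, 5 and 2 pairs, with relative ratios of 1.01 for SC, a turned direction, and 1.01 for Abcam (1.002 to 1.03). The relative ratio with Abcam turned to 0.980 within ±500 bp and to 0.995 within ±1 kb. Grouping by CpG content and input together gave 0.947 with SC (0.923 to 0.973) and 0.963 with Abcam (0.941 to 0.986), the latter turned. Adding pairs whose TSSs cross gave 11 called with both antibodies and a relative ratio with SC of 1.01, which again turned. Leaving out 1 replicate at a time gave 5 to 10 pairs with SC, 10 with Abcam and 5 to 7 with both, the lowest SC count coming without SC replicate 2. The log2 ratio of Tctn3/Entpd1 with Abcam turned to 0.081 within ±1 kb and to 0.00093 within ±10 kb. Within ±500 bp, calls were also lost at Ppp1r3d/9030418K01Rik and Zcrb1/Pphln1 with SC, Ppwd1/Cenpk and Ddx25/Pus3 with Abcam and Tctn3/Entpd1 with SC. The concentration of fragments near the midpoint kept its direction with both antibodies for a central ±1 kb, at 0.906 (0.848 to 0.969) with SC and 0.918 (0.866 to 0.973) with Abcam. Shorter distance limits, the minimum of 20 input fragments, the number of input groups, the definition of single promoters and the pseudocount changed none of the class comparisons in direction or call. The cause was not tested for any of these. The median of 8 SC and 10 Abcam fragments at a pair limits the precision of each ratio. No paired analysis was possible because the replicates of an antibody are the same fragments and the input has 1 library.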

Other observations

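Pairs whose transcription start sites cross, so that the divergent genes overlap at their 5′ ends, were left out of the class above and were examined separately. There were 336 of them, and the exact test called 5 with SC (1.49%, against 0.585% of all regions tested), 5 with Abcam (1.49%, against 1.06%) and 4 with both (1.19%, against 0.441%). Their summed ratio of ChIP to input was 0.938 with SC (0.902 to 0.975) and 0.967 with Abcam (0.934 to 1.001). Fam113a/Vps16, with a subunit of the vacuolar sorting complexes, had 32 SC, 47 Abcam and 110 input fragments, with ratios of 2.53 and 3.02. Also called with both antibodies were Gm9857/4921515J06Rik (22, 34 and 65 fragments) and A830073O21Rik/Fam174b (30, 26 and 79). Abcam alone called Ahr/Gm17436, with the aryl hydrocarbon receptor (7, 17 and 37 fragments), and SC alone called E130114P18Rik/Nfia, with a nuclear factor of glial and neural development (17, 9 and 44). These pairs were named after their values were seen, and several rest on a gene model of uncertain standing on 1 of the strands.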
